A study of Mus musculus with 6 samples.

Results

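Along the kidney tubule, filtered sodium is taken back by a different apical transporter in each segment. Here 9 genes of apical and basolateral sodium transport are described in obstructed mouse kidney. They were taken by symbol from the deposited table, all 9 were found among its 18849 genes, and all 9 passed the filter for testing. KO kidneys came from male C57BL/6 mice, 8 weeks old, with loxP-flanked c-Abl (Abl1) and the transgene Ksp-Cre, which acts in tubule epithelium, after 14 days of unilateral ureteral obstruction (UUO), in which the ureter of 1 kidney is tied. Floxed kidneys, from c-Abl flox/flox mice without a stated Cre, had the same strain, sex, age and obstruction; the genotype labels read c-Abl knockdown for the first group and WT for the second. There were 3 whole-kidney libraries per group, and unobstructed kidneys were not analysed here. Whether each library came from its own mouse is not stated, and the p-values therefore reflect the spread among these libraries, which may be technical.

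Sodium enters tubule cells through the apical membrane and leaves through the Na,K-ATPase of the basolateral membrane, whose work keeps cell sodium low and drives the apical step. The exchanger NHE3 (Slc9a3) is the main apical entry route of the proximal tubule and is also present in the thick ascending limb. The cotransporter NKCC2 (Slc12a1) serves the thick ascending limb and is the target of loop diuretics, while NCC (Slc12a3) serves the distal convoluted tubule and is the target of thiazides. The epithelial sodium channel ENaC (Scnn1a, Scnn1b and Scnn1g for the alpha, beta and gamma subunits) acts in connecting tubule and collecting duct under aldosterone and is blocked by amiloride. Atp1b1 and Fxyd2 encode the beta-1 and the gamma subunit of the Na,K-ATPase, and Slc8a1 encodes NCX1, a basolateral exchanger that brings sodium in and moves calcium out in the distal tubule.

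Expression is given in FPKM, a fragment count scaled to gene length and to the size of the library, so levels of different genes are set side by side per length. Log2 fold changes are KO minus floxed on the log2(FPKM + 1) scale, tested with limma over 13390 genes that reached an FPKM of 1 in at least 3 of the 6 libraries. The call threshold is an adjusted p of 0.05. In whole tissue, fewer cells of a type and less RNA per cell cannot be told apart. Abl1 itself read 10.46, 14.45 and 12.91 FPKM in KO replicates 1, 2 and 3, against 18.16, 15.93 and 17.33 FPKM in floxed replicates 1, 2 and 3. Cdh16, the cadherin gene whose promoter drives Ksp-Cre, averaged 321 ± 61.0 FPKM in KO and 216 ± 17.3 FPKM in floxed kidneys (SD, n = 3 each). KO replicate 3 stood apart from the other KO libraries and nearer to the floxed ones, so each member's values are given by library, with the result without it; other genes are given in part as means that include it.

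To show what lies before the start sites of these genes, the RefSeq upstream stretch of 5 members, in build GRCm38.p6, is printed 5′ to 3′ toward the gene. Scnn1g and Scnn1b are included because they are neighbours on chromosome 7 and had close patterns, Slc9a3, Slc12a3 and Atp1b1 because they stand for the proximal, distal and basolateral steps. Capitals mark matches on either strand to the GC box GGGCGG, the CCAAT box and the TATA box TATAAA. These windows end before the first annotated exon.
Slc9a3, chr13:74121163-74121412, plus strand: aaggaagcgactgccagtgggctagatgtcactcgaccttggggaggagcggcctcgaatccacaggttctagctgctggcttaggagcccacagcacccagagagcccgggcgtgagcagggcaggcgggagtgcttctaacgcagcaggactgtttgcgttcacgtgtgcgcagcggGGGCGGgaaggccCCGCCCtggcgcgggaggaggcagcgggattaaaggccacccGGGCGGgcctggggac
Slc12a3, chr8:94328958-94329200, plus strand: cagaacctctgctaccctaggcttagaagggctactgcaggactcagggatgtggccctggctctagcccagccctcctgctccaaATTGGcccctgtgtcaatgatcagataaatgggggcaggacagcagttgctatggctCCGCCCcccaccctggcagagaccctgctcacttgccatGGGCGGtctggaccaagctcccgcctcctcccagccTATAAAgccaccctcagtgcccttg
Scnn1g, chr7:121734229-121734478, plus strand: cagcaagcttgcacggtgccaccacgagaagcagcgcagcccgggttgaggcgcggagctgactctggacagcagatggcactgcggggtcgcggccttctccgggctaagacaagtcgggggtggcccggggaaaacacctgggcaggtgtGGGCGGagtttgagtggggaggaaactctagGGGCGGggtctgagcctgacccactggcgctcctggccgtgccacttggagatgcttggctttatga
Scnn1b, chr7:121864788-121865037, plus strand: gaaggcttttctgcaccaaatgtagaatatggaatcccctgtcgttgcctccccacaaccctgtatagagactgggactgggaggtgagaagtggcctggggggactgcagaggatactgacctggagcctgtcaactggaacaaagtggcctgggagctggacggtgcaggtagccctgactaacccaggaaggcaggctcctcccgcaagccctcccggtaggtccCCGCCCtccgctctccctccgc
Atp1b1, chr1:164458356-164458605, minus strand: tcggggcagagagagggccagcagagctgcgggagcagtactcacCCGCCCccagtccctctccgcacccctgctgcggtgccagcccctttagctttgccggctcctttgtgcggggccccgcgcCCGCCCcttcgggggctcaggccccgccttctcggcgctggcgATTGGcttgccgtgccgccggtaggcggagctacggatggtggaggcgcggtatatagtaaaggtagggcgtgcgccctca

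RefSeq windows were found for 7 of the 9 members, Scnn1a and Fxyd2 not being among them. Across these 7, 5 held a GC box, against 32.7% of all 32851 upstream windows of 250 bases, and 3 held CCAAT, against 33.8%. For Slc12a1 and Slc12a3 the searched stretch was shorter, at 155 and 243 bases, because an annotated exon lies within the window. TATAAA was found for Slc12a3 alone, with its first base 32 bases before the start site, against 12.4% of all windows. Guanine and cytosine made up 67.6% of the Slc9a3 stretch, 65.2% of Scnn1g, 60.8% of Scnn1b, 70.4% of Atp1b1 and 37.4% of Slc12a1, against a median of 52.4% over all windows. Neither the steroid receptor half-site AGAACA nor the HNF1 half-site GTTAAT occurred in the 7 stretches, and 16.1% and 6.43% of all windows held them. A match is a description of letters and not a bound site, and none overlapped another.

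Every one of the 9 genes had a higher mean in KO than in floxed kidneys, and for 6 of them all 3 KO libraries lay above all 3 floxed libraries. Over all tested genes such a complete separation upward was seen for 10.0%, and one downward for 21.7%. The members' log2 fold changes had a median of 1.06, against -0.12 over all tested genes. By limma, 0 of 9 passed the adjusted threshold, where 0.0672% of all genes passed, 9 genes in all, and 0.0299% passed as higher. At an unadjusted limma p under 0.05 the count was 7 of 9, all higher, against 8.38% of all genes higher at that level and 24.7% in either direction. Without KO replicate 3, 7 of 9 passed the adjusted limma threshold, all higher, where 9.02% of all genes did. That library was singled out after its values were seen, so this count shows how much rests on 1 library. Over all genes 3271 passed without it, which loosens the adjustment for every gene. Scnn1a, among the 7, passed although its unadjusted limma p did not fall. Markers of cells outside the tubule read lower in KO kidneys beside these values. Fibroblast markers were below 0 in 6 of 6 cases, with a summed level of 82.1 to 242 FPKM in KO and 382 to 468 FPKM in floxed libraries. Macrophage markers were below 0 in 5 of 5, at 480 to 965 FPKM in KO and 1249 to 1910 FPKM in floxed libraries. Over all tested genes 8761 of 13390 were below 0. Smooth muscle markers summed to 39.6 to 126 FPKM in KO and 150 to 226 FPKM in floxed libraries, and endothelial markers to 47.7 to 64.3 FPKM and 59.8 to 107 FPKM in KO and floxed libraries. KO replicate 3 had the highest fibroblast and macrophage sums of the KO libraries. Their part in the members' values was not tested.

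**Figure D1:**
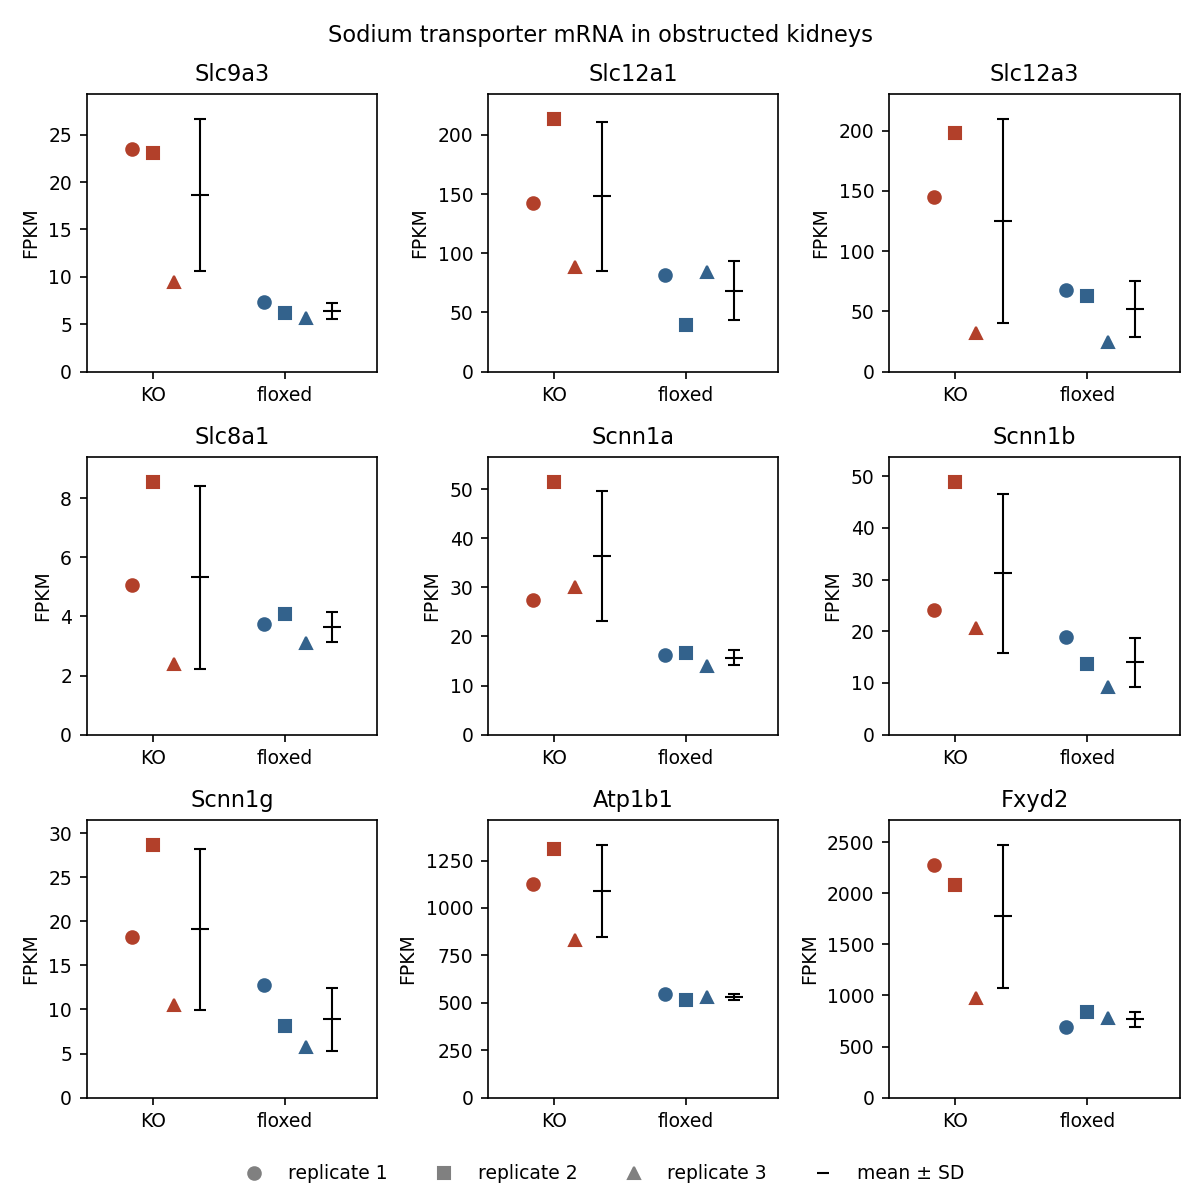
FPKM of the 9 sodium transporter genes in each library, KO at left and floxed at right, with circles, squares and triangles for replicates 1, 2 and 3 and a dash with bars for the mean ± SD of 3 libraries. The groups are apart for 6 genes and overlap for Slc12a3, Slc8a1 and Scnn1g, each time through KO replicate 3 (triangle).

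Levels spanned a wide range within a kidney. Fxyd2 was the most abundant member, with 688 to 2272.65 FPKM over the 6 libraries, and Atp1b1 came next with 512.44 to 1311.65 FPKM, below Fxyd2 in 6 of 6 libraries. Slc12a1 and Slc12a3 followed with medians of 86.1 and 65.3 FPKM. Their order did not hold in every library, Slc12a1 being the higher in 4 of 6. The ENaC subunits lay lower, with medians of 22.0 FPKM for Scnn1a, 19.8 FPKM for Scnn1b and 11.6 FPKM for Scnn1g. Slc9a3 stood below Scnn1g in 5 of 6 libraries with a median of 8.36 FPKM, and Slc8a1 was the lowest member in 6 of 6 with a median of 3.92 FPKM.

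Slc9a3, the proximal exchanger, showed the largest log2 fold change of the 9. It read 23.54, 23.04 and 9.42 FPKM in KO replicates 1, 2 and 3, against 7.3, 6.19 and 5.64 FPKM in floxed replicates 1, 2 and 3. KO replicates 1 and 2 were close to each other and far above the floxed range, and KO replicate 3 lay just above it. The means were 18.7 ± 8.01 FPKM in KO and 6.38 ± 0.846 FPKM in floxed kidneys, a 2.93-fold difference with a log2 fold change of 1.32 (SE 0.333) that did not pass over all genes (limma adjusted p = 0.093). With KO replicate 3 left out the log2 fold change was 1.73 and passed (limma adjusted p = 0.00323). A long noncoding RNA gene, Gm41003, overlaps this locus in RefSeq, and strand use in counting is not given in the sources used here.

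Slc9a3 was set beside genes of the same segment and its scaffold. All 7 proximal tubule markers were above 0, 5 at an unadjusted limma p under 0.05 and 0 adjusted, with a median log2 difference of 1.44. Of all tested genes 34.6% were above 0 and 8.38% were higher at that p. Slc5a12, a lactate transporter, averaged 67.8 ± 32.9 FPKM in KO and 19.3 ± 2.12 FPKM in floxed kidneys. The dicarboxylate transporter Slc13a3 averaged 120 ± 68.1 and 23.6 ± 7.35 FPKM in KO and floxed kidneys. The marker median above the floxed mean was 1.89 and 1.88 in KO replicates 1 and 2 and 0.29 in KO replicate 3. Relative to these markers within each library, Slc9a3 differed by -0.09 between KO and floxed kidneys, and the groups overlapped (exact two-sided permutation p = 0.8). Slc9a3r1, which encodes the NHE3 scaffold NHERF1, averaged 156 ± 33.6 FPKM in KO and 108 ± 7.93 FPKM in floxed kidneys (limma adjusted p = 0.156).

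Other sodium transport genes differed in where KO replicate 3 lay. Slc34a1, the main sodium-phosphate cotransporter, read 1562.88, 1463.95 and 324.67 FPKM in KO replicates 1, 2 and 3, against 250.59, 367.58 and 398.78 FPKM in floxed replicates 1, 2 and 3. Slc5a2, the sodium-glucose cotransporter SGLT2, read 136.26, 158.76 and 31.43 FPKM in KO, against 33.29, 42.46 and 54.32 FPKM in floxed libraries. In both genes KO replicate 3 fell within or below the floxed range, unlike Slc9a3. The basolateral sodium-bicarbonate cotransporter Slc4a4 behaved differently, with 80.13, 101.9 and 98.67 FPKM in KO and 46.88, 48.53 and 54.09 FPKM in floxed libraries. Its groups were apart and KO replicate 3 was not the lowest (log2 fold change 0.89, SE 0.135, limma adjusted p = 0.0547). Slc5a1, the glucose cotransporter SGLT1 of the later proximal tubule, chosen for mention after its values were seen, was highest in KO replicate 3, with 24.08, 20.02 and 44.1 FPKM in KO and 15.15, 12.45 and 17.75 FPKM in floxed libraries. Slc9a2, another apical exchanger of the family, averaged 10.9 ± 1.69 FPKM in KO and 5.61 ± 1.16 FPKM in floxed kidneys (limma adjusted p = 0.0687).

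Slc12a1, the thick limb cotransporter, read 142.05, 213.54 and 88.2 FPKM in KO replicates 1, 2 and 3, against 81.98, 39.37 and 84.08 FPKM in floxed replicates 1, 2 and 3. KO replicate 3 cleared the highest floxed library by a small margin, and floxed replicate 2 was low. Means were 148 ± 62.9 FPKM in KO and 68.5 ± 25.2 FPKM in floxed kidneys, with a log2 fold change of 1.09 (SE 0.398, limma adjusted p = 0.162). With KO replicate 3 left out the log2 fold change was 1.41 and passed (limma adjusted p = 0.0389). The long noncoding genes Gm14002 and Gm46760 overlap it in RefSeq.

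Genes listed as partners of salt transport in the thick limb and distal tubule were also higher in KO kidneys in most cases. Of 9 such partners, 9 were above 0, 7 had no overlap between groups and 8 were higher at an unadjusted limma p under 0.05, with 0 past the adjusted threshold. Over all tested genes 34.6% were above 0, 10.0% were higher without overlap and 8.38% were higher at that p. Kcnj1, the potassium channel ROMK that returns potassium for NKCC2, averaged 67.6 ± 20.6 FPKM in KO and 30.1 ± 5.47 FPKM in floxed kidneys. Kcnj16, a basolateral potassium channel subunit, averaged 107 ± 8.45 FPKM in KO and 68.3 ± 2.56 FPKM in floxed kidneys (limma adjusted p = 0.0547). Umod, the uromodulin gene of the thick limb, stood at 929.21, 836.42 and 608.05 FPKM in KO and 535.02, 433.88 and 580.83 FPKM in floxed libraries. Over the 6 thick limb markers, which share Umod, Kcnj1, Cldn16 and Cldn19 with the partners, the median log2 difference was 0.61. Within libraries, Slc12a1 over these markers was 0.48 higher in KO kidneys and the groups overlapped (exact two-sided permutation p = 0.3). Slc12a2, NKCC1, the relative of NKCC2 found in many cell types, went the other way, with 10.3 ± 1.13 FPKM in KO and 12.8 ± 0.499 FPKM in floxed kidneys (limma adjusted p = 0.203).

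Slc12a3, the thiazide-sensitive cotransporter, was the most uneven of the 9. It read 145, 197.95 and 31.84 FPKM in KO replicates 1, 2 and 3, against 67.57, 62.98 and 25.01 FPKM in floxed replicates 1, 2 and 3. KO replicates 1 and 2 were above every floxed library, while KO replicate 3 fell inside the floxed range, and floxed replicate 3 was itself low. The highest KO library was 6.22 times the lowest, and the highest floxed library 2.70 times the lowest. The log2 fold change of 1.02 had an SE of 0.704 (limma adjusted p = 0.387). Without KO replicate 3 it was 1.81 (limma adjusted p = 0.0316). NCC is switched on through WNK kinases, so their genes were read too. Wnk4 averaged 54.4 ± 22.1 FPKM in KO and 24.4 ± 7.59 FPKM in floxed kidneys (limma adjusted p = 0.11), and Wnk1 33.7 ± 7.11 and 29.1 ± 1.18 FPKM in KO and floxed kidneys. Stk39, which encodes the downstream kinase SPAK, averaged 19.4 ± 4.29 FPKM in KO and 15.8 ± 2.04 FPKM in floxed kidneys. Klhl3, an adaptor for WNK breakdown, averaged 5.80 ± 2.91 FPKM in KO and 2.89 ± 0.794 FPKM in floxed kidneys (limma adjusted p = 0.226).

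Slc8a1 was the member with the smallest difference. It read 5.05, 8.56 and 2.39 FPKM in KO replicates 1, 2 and 3, against 3.73, 4.1 and 3.1 FPKM in floxed replicates 1, 2 and 3. KO replicate 2 was high, and KO replicate 3 lay below every floxed library. The log2 fold change was 0.33 (SE 0.356, limma adjusted p = 0.574), and it was -0.03 without KO replicate 2 and 0.72 without KO replicate 3 (limma adjusted p = 0.0691). Other genes of the distal segments varied. Klk1, the kallikrein of the connecting tubule, averaged 716 ± 391 FPKM in KO and 148 ± 47.1 FPKM in floxed kidneys. S100g, a calcium-binding protein of the same cells, averaged 418 ± 312 FPKM in KO and 65.0 ± 33.1 FPKM in floxed kidneys. Trpm6, the magnesium channel, averaged 5.18 ± 1.39 and 5.25 ± 1.33 FPKM in KO and floxed kidneys. Pvalb, a defining marker of the early distal convoluted tubule, read 0.25, 1.13 and 0 FPKM in KO and 0.19, 0 and 0 FPKM in floxed libraries, so it was near or at 0 in both groups.

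Set against the 5 tested markers of distal convoluted and connecting tubule within each library, Slc8a1 lay lower against the marker mean in KO kidneys. The log2 difference from the marker mean was -3.34, -3.38 and -3.45 in KO replicates 1, 2 and 3, against -2.50, -2.21 and -2.03 in floxed replicates 1, 2 and 3. All KO libraries lay below all floxed libraries, KO replicate 3 included, with a difference of -1.14. A two-sided exact permutation test gave p = 0.1, its lower limit with 3 libraries a side, and 0.65 after Benjamini-Hochberg adjustment over the 13 within-library comparisons reported. Leaving out each library in turn gave differences of -1.27 to -1.03. The marker mean was carried by 3 of the 5 genes, with log2 fold changes of 2.19 for Calb1, 2.49 for S100g and 2.17 for Klk1, against 0.53 for Trpv5 and -0.02 for Trpm6. The log2 fold change of Slc8a1, 0.33, lay between those of Trpm6 and Trpv5, so the shortfall was not seen against Trpm6. Slc12a3 over the same markers differed by -0.45 with overlapping groups (exact two-sided permutation p = 0.5). Slc8a1 is also expressed outside the tubule, and markers of smooth muscle, endothelium and macrophages, 15 in all, were each below 0. Over all tested genes 8761 of 13390 were below 0. The groups overlapped for 3 of 5 smooth muscle, 4 of 5 endothelial and 0 of 5 macrophage markers. The part of these markers in the Slc8a1 values was not tested.

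**Figure D2:**
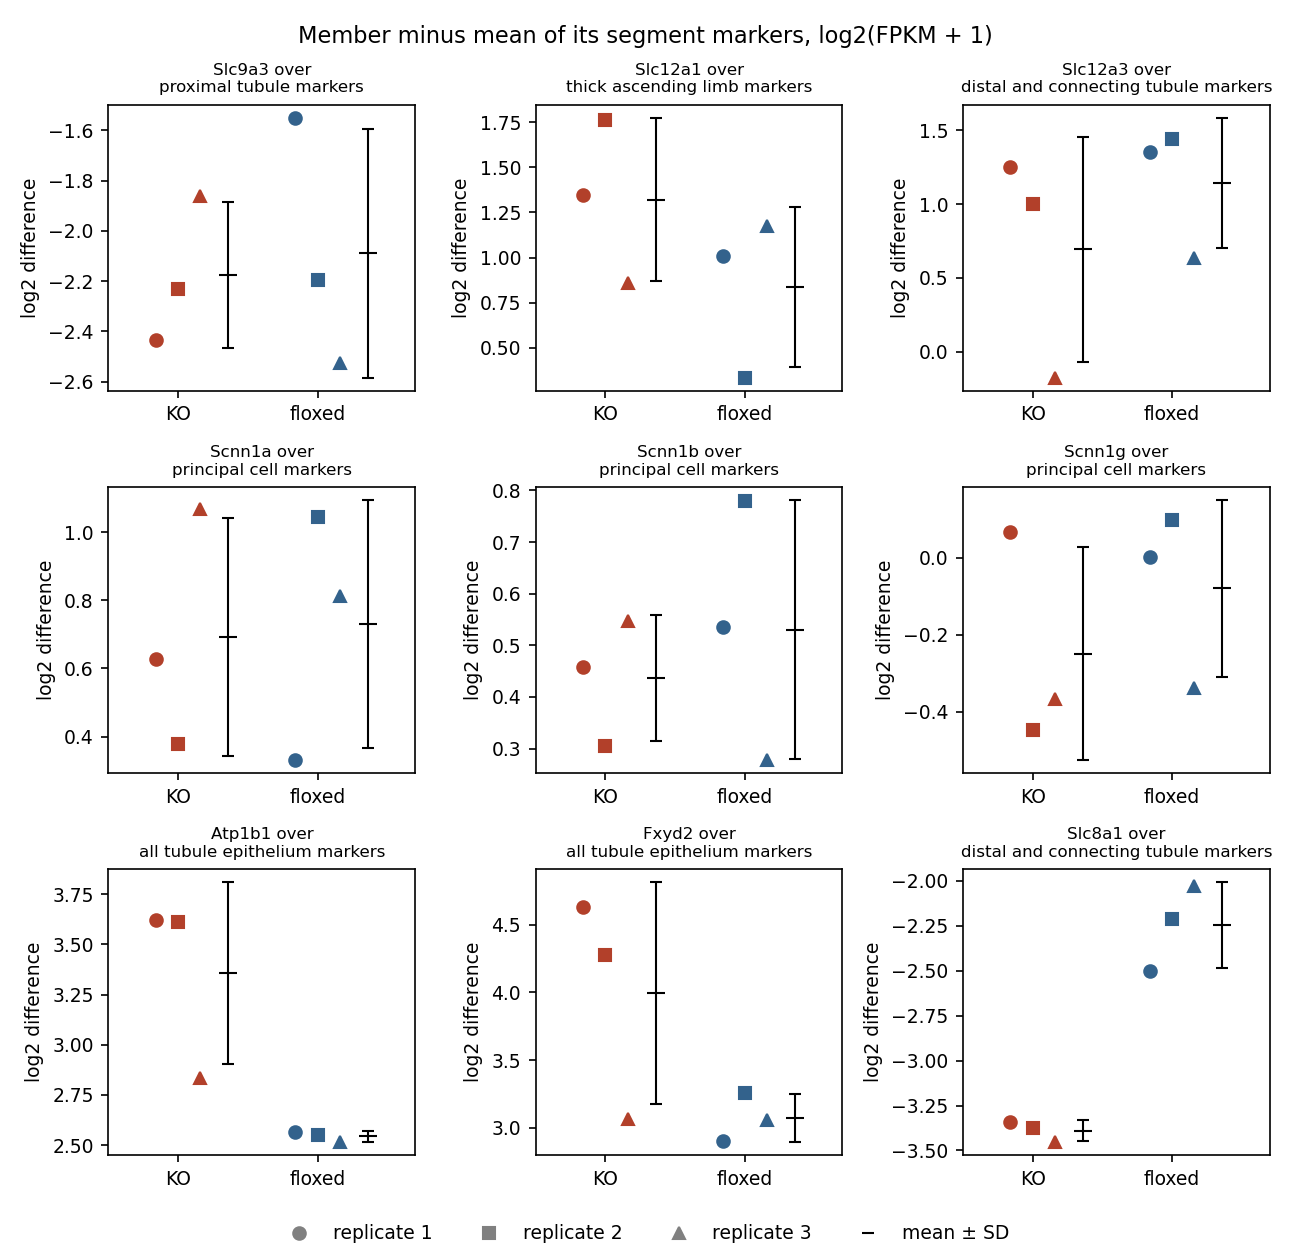
Each member's log2(FPKM + 1) minus the mean of its segment markers in the same library, KO at left and floxed at right, with symbols for replicates 1, 2 and 3 and a dash with bars for mean ± SD of 3 libraries. Groups are apart for Atp1b1 (higher in KO) and Slc8a1 (lower in KO) and overlap for the other 7 genes; vertical scales differ between panels and do not start at 0.

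The ENaC subunits had mean FPKM values 2.32 times (Scnn1a), 2.24 times (Scnn1b) and 2.15 times (Scnn1g) as high in KO as in floxed kidneys, with KO replicate 2 the highest library for all of them. Scnn1a read 27.37, 51.51 and 30.04 FPKM in KO replicates 1, 2 and 3, against 16.3, 16.71 and 13.91 FPKM in floxed replicates 1, 2 and 3. Its floxed libraries were close together, every KO library was clear of them, and KO replicate 3 was not the lowest. The log2 fold change was 1.11 (SE 0.239, limma adjusted p = 0.0719). Scnn1b read 24.19, 48.94 and 20.66 FPKM in KO, against 18.92, 13.73 and 9.29 FPKM in floxed libraries. The groups were apart by a narrow gap between KO replicate 3 and floxed replicate 1, with a log2 fold change of 1.06 (SE 0.363, limma adjusted p = 0.146). Scnn1g read 18.2, 28.67 and 10.48 FPKM in KO, against 12.77, 8.18 and 5.71 FPKM in floxed libraries. Here KO replicate 3 fell below floxed replicate 1, so the groups overlapped (log2 fold change 0.98, SE 0.390, limma adjusted p = 0.185). Without KO replicate 3, Scnn1a and Scnn1g passed (limma adjusted p = 0.0230 and 0.0358) and Scnn1b did not (limma adjusted p = 0.0521). The unadjusted limma p of Scnn1a did not fall, at 0.00233 with all libraries and 0.00337 without KO replicate 3. Its adjusted p fell because many more genes had small p-values in that fit, which loosens the Benjamini-Hochberg adjustment.

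The share of each subunit was computed within each library. Scnn1a made up 42.7 ± 5.52% of the summed subunit FPKM in KO and 41.8 ± 7.19% in floxed kidneys (SD, n = 3 each). Scnn1b made up 35.4 ± 2.17% in KO and 35.7 ± 3.65% in floxed kidneys, and Scnn1g 21.8 ± 4.49% and 22.5 ± 3.62% in KO and floxed kidneys. The ratio of Scnn1b to Scnn1a was 0.884, 0.950 and 0.688 in KO replicates 1, 2 and 3, against 1.16, 0.822 and 0.668 in floxed replicates 1, 2 and 3. That of Scnn1g to Scnn1b was 0.752, 0.586 and 0.507 in KO, against 0.675, 0.596 and 0.615 in floxed libraries. For these and the ratio of Scnn1g to Scnn1a the groups overlapped (exact two-sided permutation p = 1.0, 0.7 and 0.8 for Scnn1b to Scnn1a, Scnn1g to Scnn1b and Scnn1g to Scnn1a). A p of that size does not show that the ratios were alike, and their log2 differences of -0.06, -0.08 and -0.13 changed sign when single libraries were left out.

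The principal cell, where ENaC works in the collecting duct, had 8 of 8 markers above 0 and 5 higher with no overlap, with a median log2 difference of 1.05. Over all tested genes 34.6% were above 0 and 10.0% higher with no overlap. Aqp4, a basolateral water channel, averaged 6.08 ± 2.38 FPKM in KO and 1.57 ± 0.175 FPKM in floxed kidneys, and the water channel Aqp3 averaged 46.4 ± 33.8 and 9.33 ± 3.36 FPKM in KO and floxed kidneys. Over these markers within libraries, Scnn1a, Scnn1b and Scnn1g differed by -0.04, -0.09 and -0.17 between KO and floxed kidneys, with overlap in each. Hsd11b2, the enzyme that keeps glucocorticoids off the aldosterone receptor, averaged 130 ± 74.2 FPKM in KO and 51.9 ± 20.8 FPKM in floxed kidneys (limma adjusted p = 0.143). The aldosterone receptor Nr3c2 averaged 3.82 ± 1.11 FPKM in KO and 2.30 ± 0.591 FPKM in floxed kidneys (limma adjusted p = 0.19). Prss8, the channel-activating protease prostasin, read 200.34, 162.64 and 111.49 FPKM in KO, against 80.95, 73.11 and 80.62 FPKM in floxed libraries, with no overlap (limma adjusted p = 0.0748). Sgk1, an aldosterone-induced kinase, read 30.03, 114.35 and 19.24 FPKM in KO, against 23.22, 40.82 and 34.42 FPKM in floxed libraries. The groups overlapped for Sgk1 (log2 fold change 0.34, limma adjusted p = 0.739). It was highest in KO replicate 2, the library with the highest ENaC values, and lowest in KO replicate 3. In KO replicate 3 Scnn1a and Scnn1b lay above every floxed library and Scnn1g did not. Floxed replicate 1 was the lowest floxed library for Sgk1 and the highest for Scnn1b and Scnn1g. A relation of Sgk1 to the ENaC values was not tested. Nedd4l, the ubiquitin ligase that removes ENaC from the membrane, averaged 21.5 ± 3.19 FPKM in KO and 18.7 ± 1.09 FPKM in floxed kidneys.

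Of the Na,K-ATPase genes, the beta-1 subunit Atp1b1 read 1128.2, 1311.65 and 829.81 FPKM in KO replicates 1, 2 and 3, against 545.39, 512.44 and 531.94 FPKM in floxed replicates 1, 2 and 3. The floxed libraries agree within 1.06 times, and every KO library was well above them. The mean was 2.06-fold higher in KO kidneys, with a log2 fold change of 1.01 (SE 0.203) and the smallest p of the 9 members (limma adjusted p = 0.0651). Without KO replicate 3 the log2 fold change was 1.20 and passed (limma adjusted p = 0.00418). Nme7, a coding gene, overlaps Atp1b1 in RefSeq. Relative to 5 markers of tubule epithelium as a whole, Atp1b1 stood at 3.62, 3.61 and 2.83 in KO, against 2.57, 2.55 and 2.51 in floxed libraries. These within-library differences had no overlap either (difference 0.81, exact two-sided permutation p = 0.1, the smallest possible, 0.65 after adjustment over 13), and leaving out each library gave 0.68 to 1.07. The 5 markers themselves had a median log2 fold change of only 0.14. Medians of the segment lists ran from 0.61 (thick limb) to 2.17 (distal convoluted and connecting tubule), and Atp1b1 lay within that range.

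Fxyd2, the gamma subunit that tunes the affinity of the pump, read 2272.65, 2078.62 and 976.59 FPKM in KO replicates 1, 2 and 3, against 688, 838.77 and 775.4 FPKM in floxed replicates 1, 2 and 3. KO replicates 1 and 2 were far above the floxed range and KO replicate 3 slightly above it. The log2 fold change was 1.12 (SE 0.336, limma adjusted p = 0.118), and 1.51 without KO replicate 3 (limma adjusted p = 0.00362). Relative to the tubule epithelium markers, KO replicate 3 fell back into the floxed range for this gene (exact two-sided permutation p = 0.2).

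The other pump subunits and FXYD proteins mostly lay on the opposite side. Of 9 further genes of this group reported here, 1 was above 0, the collecting duct gene Fxyd4, and 8 were below 0. At an unadjusted limma p under 0.05, 0 were higher and 7 were lower, and 0 passed the adjusted threshold. Among all tested genes 8761 of 13390 were below 0, and 16.3% were lower at that level. Fxyd1, known from muscle and heart, read 6.75, 12.24 and 15.8 FPKM in KO replicates 1, 2 and 3, against 28.14, 25.08 and 29.74 FPKM in floxed replicates 1, 2 and 3, without overlap (log2 fold change -1.25, SE 0.274, limma adjusted p = 0.074). The next genes were picked for mention after their values were seen. Atp1b3, the widely expressed beta-3 subunit, averaged 57.3 ± 4.52 FPKM in KO and 72.0 ± 5.71 FPKM in floxed kidneys. Fxyd5 averaged 67.7 ± 35.2 FPKM in KO and 116 ± 22.6 FPKM in floxed kidneys, and Fxyd6, the neighbour of Fxyd2 on chromosome 9, 6.53 ± 2.96 and 14.5 ± 3.08 FPKM in KO and floxed kidneys. Each of these kept its side of 0 under median-ratio, quantile and TPM scaling. Skeletal and heart muscle markers were near 0, none above 1.07 FPKM in any library. The part of the lower fibroblast, macrophage and smooth muscle markers in the values of the lower pump and FXYD genes was not tested.

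**Figure D3:**
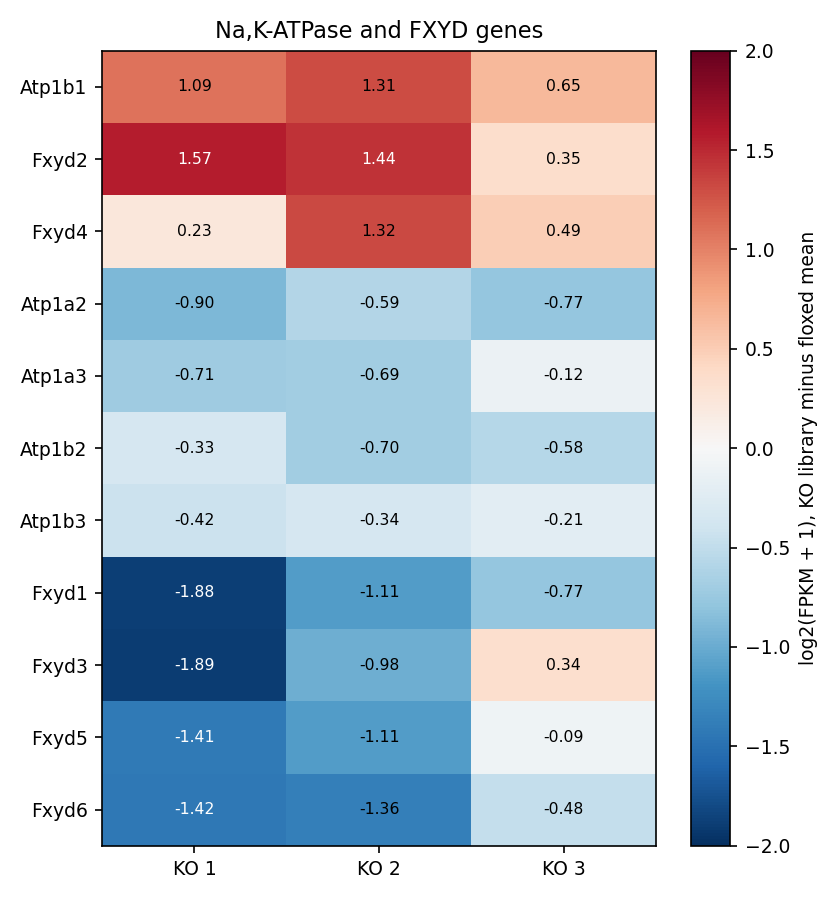
Log2(FPKM + 1) of 11 Na,K-ATPase and FXYD genes in KO replicates 1, 2 and 3 minus the mean of the floxed libraries, red for higher and blue for lower. Atp1b1, Fxyd2 and Fxyd4 are above 0 in each KO library, and the other genes are below 0 in each except Fxyd3, which is 0.34 in KO replicate 3.

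The KO libraries differed from each other. KO replicate 2 was the highest KO library for 7 of the 9 members, and KO replicate 1 for the other two, Slc9a3 and Fxyd2. KO replicate 3 was the lowest for 8 of 9, Scnn1a being the exception, whereas it was the lowest KO library for 25.5% of all tested genes. Of the principal cell markers 8 of 8 read higher in KO replicate 2 than in KO replicate 1, of the intercalated cell markers 5 of 5, and of the proximal tubule markers 2 of 7. The count was 3 of 6 for thick limb markers, 3 of 5 for distal convoluted and connecting tubule, 4 of 5 for tubule epithelium as a whole and 5 of 5 for endothelium. Over all tested genes that share was 63.1%. The medians of the principal cell markers above the floxed mean were 0.79, 1.86 and 0.65 in KO replicates 1, 2 and 3. These are single libraries without a replicate of their own, so the differences between them are given without a test.

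**Figure D4:**
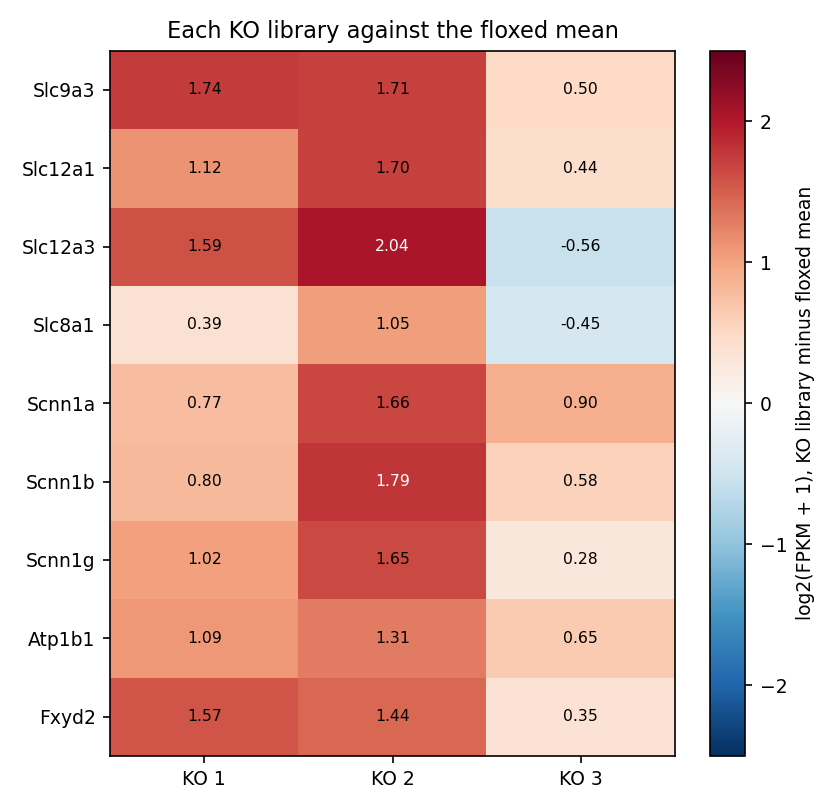
Log2(FPKM + 1) of each member in KO replicates 1, 2 and 3 minus the mean of the floxed libraries. Values run from -0.56 for Slc12a3 in KO replicate 3 to 2.04 for the same gene in KO replicate 2, and the only values below 0 are those of Slc12a3 and Slc8a1 in KO replicate 3.

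**Figure D5:**
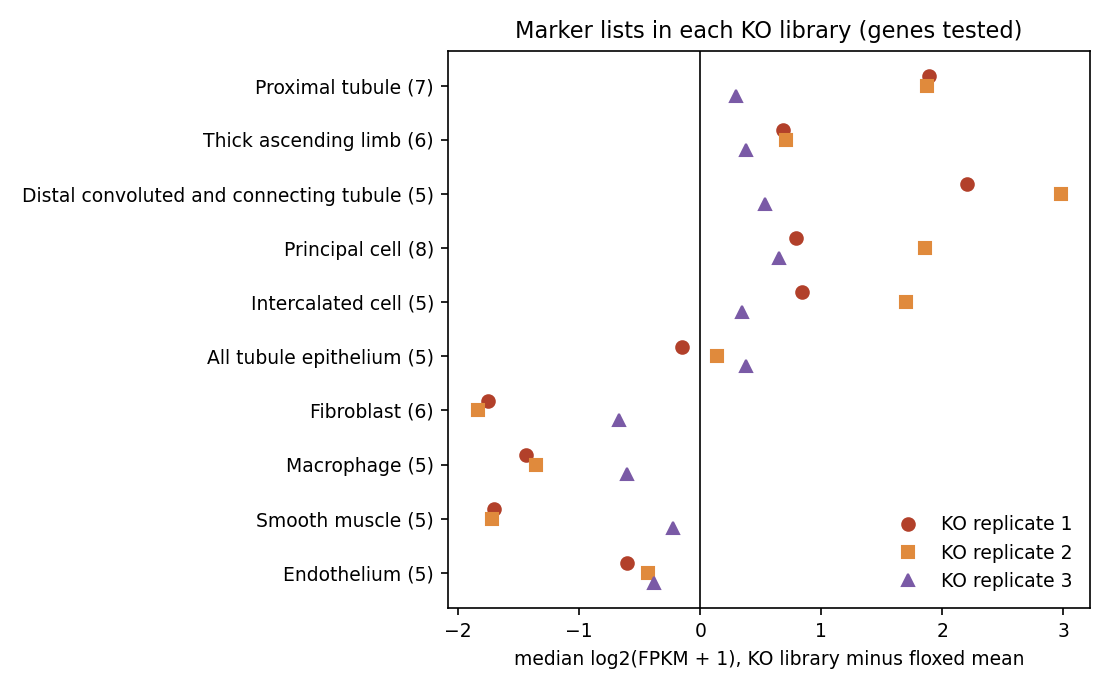
Median log2(FPKM + 1) of cell type marker lists in each KO library minus the floxed mean, with the number of tested genes in brackets. Tubule segment lists are above 0 in all KO libraries, the list for tubule epithelium as a whole lies between -0.15 and 0.38, and fibroblast, macrophage, smooth muscle and endothelial lists are below 0.

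The genes nearest to each member in pattern over the 6 libraries were taken by the root mean square difference of centred log2 values, as a description. The values were not scaled to each gene's spread, so distances tend to be larger for genes that vary more between libraries. For Scnn1g, Scnn1b was the second nearest of all tested genes and for Scnn1b, Scnn1g was the third nearest, at 0.17. Scnn1a was farther from both, at 0.26 from Scnn1b and 0.36 from Scnn1g, and Enpp2 and Gpat3 were among its 3 nearest genes, at 0.17 and 0.18. Slc9a3 was nearest to Slc5a11, a sodium-inositol cotransporter, at 0.08, followed by the acetyltransferase Nat8 and the mitochondrial carrier Slc25a42. Slc12a1 was nearest to Kcnj1 at 0.24, then to Apela and to Bsnd, which encodes the chloride channel subunit barttin. Atp1b1 was nearest to Slc51b, an organic solute transporter subunit, at 0.03, and Fxyd2 to the urea cycle enzyme Asl at 0.08. Slc12a3, the member with the widest spread within each group, had no gene nearer than 0.34 (Abca13), followed by Pgam2 and the anion exchanger Slc26a4. For Slc8a1 the nearest was Atxn7l2 at 0.12. Among the members themselves, Slc12a1 and Slc12a3 were the farthest apart, at 0.84. Their ratio within a library was 0.980, 1.08 and 2.77 in KO replicates 1, 2 and 3, against 1.21, 0.625 and 3.36 in floxed replicates 1, 2 and 3, so replicate 3 of either genotype had much more Slc12a1 than Slc12a3.

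Over the wider list of 55 other genes of renal sodium transport and its control, 54 were tested, all but Slc8a2. Of these, 35 were above 0 and 19 below, with a median log2 fold change of 0.29, and 0 passed the adjusted limma threshold. At an unadjusted limma p under 0.05, 20 were higher and 8 lower, 71.4% higher among those called, against 34.0% over all genes. With median-ratio scaling the split was 24 higher and 4 lower, 85.7% higher, against 54.3% over all genes. That scaling moved the median of all genes by 0.14 and the median of the 9 members from 1.06 to 1.21. Without KO replicate 3, 18 of the 54 passed the adjusted limma threshold as higher and 7 as lower, where 9.02% and 15.4% of all genes did. Of 8 kinase and ubiquitin genes 1 was higher and 0 lower at an unadjusted limma p under 0.05, of 8 hormone and protease genes 4 and 0, and of 4 NHE3 scaffold genes 2 and 0. Over all genes 8.38% were higher and 16.3% lower at that p, so the kinase and ubiquitin count, 12.5% higher, was near the share over all genes. All 9 members stayed above 0 under median-ratio, quantile and TPM scaling.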

How the data were processed

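RNA was measured in 6 whole-kidney libraries, and the deposited values are FPKM per gene, rounded to 2 decimals, with columns matched to samples by name per the file headers. Per the labels' protocols, TRIzol-extracted total RNA went into standard Illumina libraries. Genome build mm9 is named per the submitters' processing notes; the sources used here name no aligner, counter, annotation or strand setting. FPKM depends on the whole library, so abundant genes can move the rest. The table gives no read totals. Low values of short transcripts were spaced as whole fragments, with 67.0% to 69.0% within 0.2 of a whole number against at most 47.3% with shuffled lengths, which puts depth near 16100000 to 17850000 fragments. That number limits precision.

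Genes reaching an FPKM of 1 in 3 or more libraries were tested on log2(FPKM + 1) in R 4.3.3 by limma 3.58.1 (trended prior variance, a single genotype term and two-sided p-values, Benjamini-Hochberg over all 13390 genes). The procedure was tested on simulated data with independent normal values, equal spread in both groups and no deviating library. That test therefore does not cover a library that stands apart, as KO replicate 3 does here. Within-library ratios and differences from segment markers were compared by exact permutation tests (Python 3.11.15, scipy 1.17.1), whose smallest two-sided p is 0.1 for 3 against 3. Alternatives were other pseudocounts, filters and scalings, limma without trend, array weights, a replicate term and leaving out each library. The members, marker lists, pathway list and the rule for named genes were chosen with earlier results of these data known. By that rule the text names all members, Abl1, Cdh16, a fixed part of the pathway list, the 4 others of it with the smallest p, up to 2 markers per segment and the 3 genes nearest each member in pattern; some genes the rule names are not reported here, and others named were chosen after their values were seen. Upstream sequences are from RefSeq, build GRCm38.p6, a build other than that of the files, and were matched by Entrez identifier. Outliers within groups of 3 were not tested.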

Additional observations from a re-analysis of the deposited data

How the results depend on the processing

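Each member kept a log2 fold change above 0 under every alternative run, except Slc8a1, which was -0.0302 without KO replicate 2 and 0.718 without KO replicate 3, and was not tested under a mean FPKM of at least 5. The number of members past the adjusted limma threshold was 0 under all alternatives but 2: it was 4 with array weights, whose estimation stopped before its convergence tolerance was met, and it ranged from 0 to 7 with single libraries left out, the 7 being without KO replicate 3. At an unadjusted limma p under 0.05 the members' count of 7 ranged from 4 (without KO replicate 2) to 9 (without KO replicate 3) when single libraries were left out. The pathway list's count of 28 at that level ranged from 17 to 34, with 17 without KO replicate 2 and 18 without floxed replicate 2. Over all genes, the adjusted limma count of 9 became 1 with either smaller pseudocount (0.1, 0.01), with no trend, with quantile or median-ratio scaling or with genes limited to a mean FPKM of 5, 0 without a filter (3843 genes at an unadjusted p under 0.05), 10 with TPM scaling and 1456 with array weights. It ranged from 0 to 3271 when single libraries were left out, the 0 being without floxed replicate 2 or 3 (2298 and 2146 genes at an unadjusted p under 0.05) and the 3271 without KO replicate 3. Same-numbered libraries did not deviate together over the tested genes (correlations of -0.13, -0.07 and 0.03 for replicates 1, 2 and 3). Such correlations cannot exclude a link between same-numbered libraries for single genes. With a replicate block the adjusted limma count was 2 over all genes and 0 over the members. The block lowered the SE of Slc12a3 from 0.704 to 0.263 (limma adjusted p = 0.134) and raised that of Slc12a1 from 0.398 to 0.444 (limma adjusted p = 0.247). Of 130 values of the within-library comparisons, 15 changed sign. With quantile scaling Slc9a3 over its segment markers was 0.0699. With single libraries left out the ranges were -0.22 to 0.15 for Scnn1b to Scnn1a, -0.32 to 0.12 for Scnn1g to Scnn1a, -0.22 to 0.0391 for Scnn1g to Scnn1b, and -0.49 to 0.70 for Slc12a1 to Slc12a3. They were -0.30 to 0.18 for Slc9a3, -0.24 to 0.12 for Scnn1a and -0.22 to 0.0304 for Scnn1b over their segment markers. The cause of these shifts was not tested, and with 3 libraries per group 1 library can decide a call.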
